A study of Homo sapiens with 6 samples.

Results

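HMOX1, its activator NRF2 (gene NFE2L2), its repressor BACH1 and 6 further genes that NRF2 is known to activate were followed in A375 cells, an established human melanoma line. The 9 genes were picked by name, with earlier results of these data known, and HMOX1 heads them because it had the smallest p of all genes tested between the genotypes. All 9 were found among the 63086 genes of the table, and all 9 passed the filter on low counts, as did 16046 genes in all. The libraries were 3 from DUS1L knockout cells, made by CRISPR/Cas9 editing and clonal selection, and 3 from wild-type cells kept in parallel without targeting. DUS1L is a dihydrouridine synthase that acts on tRNA. No treatment was described for either genotype. How many clones the knockout libraries come from was not given, and a genotype effect therefore cannot be told apart from a difference between a single clone and its parent line.

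NRF2 is a transcription factor held low by KEAP1, which hands it to a ubiquitin ligase built on CUL3 and RBX1. When electrophiles or oxidants modify KEAP1, NRF2 accumulates, pairs with a small MAF protein and binds antioxidant response elements near genes for glutathione, thioredoxin and NADPH metabolism. BACH1 also pairs with small MAF proteins at such elements but represses, and heme releases it and marks it for degradation. HMOX1, which splits heme into biliverdin, iron and carbon monoxide, is known as the target most tightly held by BACH1, and it can also be induced through heat shock factor, AP-1, NF-kB and ATF4. In melanoma, NRF2 activity is known for its part in resistance to oxidative stress and to targeted drugs.

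The libraries held 17121315 to 18861514 estimated counts, so 3 counts correspond to 0.159 to 0.176 CPM (counts scaled by effective library size). DUS1L itself was at 55.4, 54.7 and 53.1 CPM in knockout libraries, against 79.95, 75.7 and 77.0 CPM in wild-type libraries, a log2 fold change of -0.51 (adjusted p = 1.7e-06 in edgeR's quasi-likelihood test with Benjamini-Hochberg adjustment). Its transcript was lower in knockout cells but present. Adjusted p-values come from that test unless another is named, and SD, n and SE refer to 3 libraries a genotype throughout. A rise or fall given as a bare number is a log2 fold change of knockout over wild-type. Of 11 melanoma and melanocyte markers, 7 were tested, 2 rose (AXL and NGFR), 3 fell (SOX10, S100B and CSPG4) and 2 did not pass (MITF and S100A1). These are 28.6% higher and 42.9% lower, beside 20.5% and 20.7% of all tested genes. SOX10 was at 480.6 ± 33.8 CPM in knockout and 603.8 ± 16.9 CPM in wild-type cells, and AXL at 262.4 ± 11.7 CPM in knockout and 176.0 ± 19.9 CPM in wild-type cells (SD, n = 3 each). The pigmentation genes PMEL, MLANA and DCT had at most 9 counts in any library, and TYR had none. The melanocyte lineage factor was thus present and the pigment genes were near or at 0 in both genotypes.

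The gene starts were searched for 2 motifs, shown because the comparison is about whether these genes move together and the knockout data do not enter the search. RefSeq promoters (GRCh38.p14, 250 bases before to 50 after each start) were matched by symbol for 8 of the 9 genes. No entry was matched for HMOX1. The first motif was the core of the antioxidant response element, TGACNNNGC, and the second was the AP-1 motif TGANTCA, each on both strands. The core can contain the AP-1 letters, so the searches can overlap. Within the matched windows, the core was found for GCLM and TXNRD1, and the AP-1 motif for OSGIN1 and BACH1. The match of BACH1 was in 1 of its 3 windows. Neither motif was found in the windows of NFE2L2, NQO1, GCLC or SRXN1. Sequence more than 250 bases before a start was not searched, so a window without a match does not show that a gene lacks the element. Of all 35116 promoters, counted window by window, 13.3% held the core and 7.71% the AP-1 motif. Counted by gene, over any of its windows, 16.1% of 27305 genes held the core. The share by gene is not given for the AP-1 motif. The matches of the members are printed with 10 flanking bases, the motif in capitals, on the strand of the gene.
GCLM, chr1:93909446-93909474, minus strand: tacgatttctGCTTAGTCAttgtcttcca
TXNRD1, downstream start, chr12:104286920-104286948, plus strand: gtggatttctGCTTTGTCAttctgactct
TXNRD1, upstream start, chr12:104215670-104215698, plus strand: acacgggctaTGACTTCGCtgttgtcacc
TXNRD1, upstream start, chr12:104215761-104215789, plus strand: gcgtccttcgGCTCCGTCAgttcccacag
OSGIN1, chr16:83953133-83953159, plus strand: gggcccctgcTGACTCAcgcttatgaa
BACH1, chr21:29298864-29298890, plus strand: gcggaaggagTGAGTCAcctgaccgct

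HMOX1 was higher in DUS1L knockout cells by a wider margin than the 8 other genes. The gene (ENSG00000100292.18) lies on the plus strand of chromosome 22 from 35380361 to 35394214 (GRCh38). It was at 125, 129.6 and 130.2 CPM in the knockout libraries, against 22.4, 26.0 and 27.8 CPM in the wild-type libraries. The knockout libraries lay close together and far above each wild-type library. Wild-type replicate 1 had the lowest value. The means were 128.4 ± 2.6 CPM in knockout and 25.4 ± 2.8 CPM in wild-type cells (SD, n = 3 each). This was a 5.05-fold higher level, with a log2 fold change of 2.34 (SE 0.07). Of all 16046 tested genes, HMOX1 ranked 52 by log2 fold change. Of 11204 protein-coding genes that averaged at least 5 CPM in either genotype, it ranked 13. HMOX1 was part of how these genes were chosen, so these values are a description and no p-value is given for them, nor for the other 8.

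HMOX1 is abundant in macrophages, so markers of that cell type are given beside it. Their summed level over 11 genes was 32.1 to 36.0 CPM in knockout and 25.1 to 25.3 CPM in wild-type libraries. Most of it came from CD68, at 23.3 ± 4.6 CPM in knockout and 21.4 ± 0.2 CPM in wild-type cells. ITGAM, an integrin chain of myeloid cells, rose to 8.09 ± 2.93 CPM in knockout cells, against 2.55 ± 0.21 CPM in wild-type cells (adjusted p = 3.55e-05). The scavenger receptor gene CD163, too low to be tested, was at 0.478, 0.462 and 1.30 CPM in the knockout libraries, against 0, 0.271 and 0.233 CPM in the wild-type libraries. CSF1R was tested and not called, at 0.741 ± 0.162 CPM in knockout and 0.343 ± 0.106 CPM in wild-type cells (adjusted p = 0.0949). CD14, not tested, was at 0.714 ± 0.383 CPM in knockout and 0.0949 ± 0.0890 CPM in wild-type cells. FCER1G, not tested, went the other way, at 0.196 ± 0.292 CPM in knockout and 0.408 ± 0.380 CPM in wild-type cells, with overlap. MRC1, TYROBP and VSIG4 were not tested and overlapped between genotypes. The pan-leukocyte gene PTPRC had at most 7 counts in any library, MARCO had none, and 5 of the 11 markers had fewer than 10 counts in each library. The part of these markers in the level of HMOX1 was not tested. In bulk RNA, a change in the number of cells of a kind and a change in RNA per cell cannot be told apart.

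**Figure D1:**
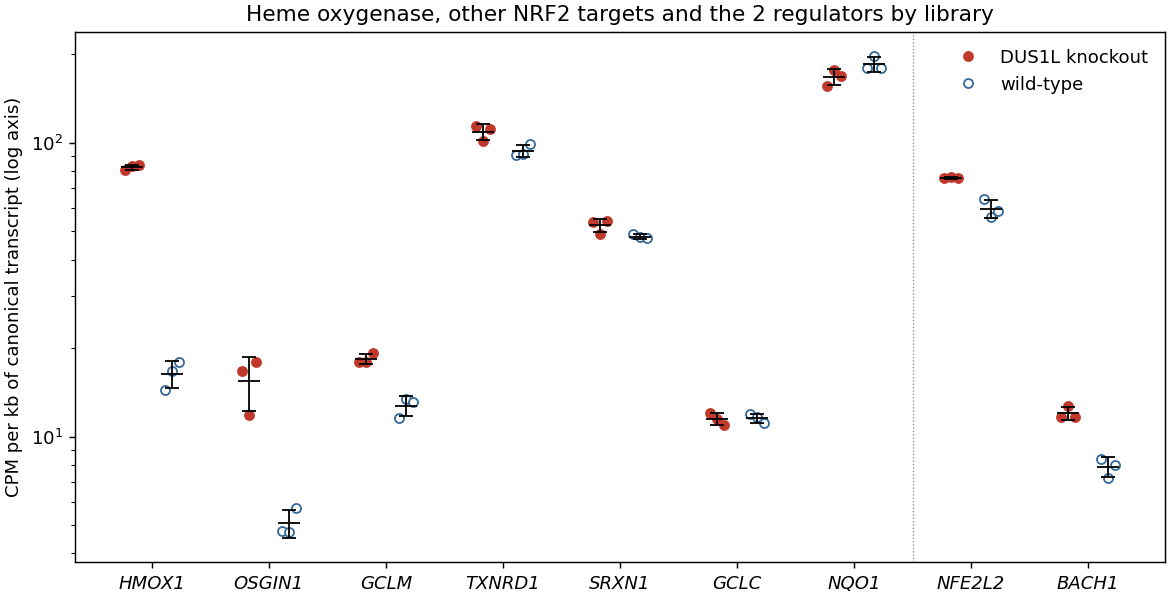
Level of each gene in CPM per kb of its canonical transcript (log axis) in 3 DUS1L knockout libraries (filled red, left of each pair) and 3 wild-type libraries (open blue, right). Black bars are the mean and SD. HMOX1 and OSGIN1 show the widest gaps between genotypes, the values of GCLC overlap, and NQO1 is slightly lower in knockout libraries.

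OSGIN1, an oxidative stress induced growth inhibitor gene that NRF2 is known to activate, came nearest to HMOX1. It lies on the plus strand of chromosome 16 from 83931311 to 83966332. Its level was 32.1, 22.7 and 34.5 CPM in the knockout libraries, against 9.17, 9.11 and 10.99 CPM in the wild-type libraries. Knockout replicate 2 was lower than the other knockout libraries, yet the genotypes did not overlap. The log2 fold change was 1.61 (SE 0.15), a 3.05-fold higher level. Its estimated counts ran from 156 to 611, the lowest range of the 9 genes.

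The 2 subunits of glutamate cysteine ligase, which makes the precursor of glutathione, parted from each other. GCLM, the modifier subunit (minus strand of chromosome 1, 93885199 to 93909456), was at 87.3, 87.5 and 93.8 CPM in the knockout libraries, against 56.5, 65.7 and 63.9 CPM in the wild-type libraries. Each knockout library was above each wild-type library, with a log2 fold change of 0.53 (SE 0.07). GCLC, the catalytic subunit (minus strand of chromosome 6, 53497341 to 53616970), was at 45.6, 43.3 and 41.3 CPM in the knockout libraries and 45.1, 44.01 and 42.0 CPM in the wild-type libraries. Its genotypes overlapped, with a log2 fold change of -0.01 (SE 0.07). Per kb of transcript, the ratio of GCLM to GCLC was 1.60 ± 0.14 in knockout and 1.10 ± 0.11 in wild-type cells (SD, n = 3 each).

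TXNRD1 and SRXN1 serve the thioredoxin and peroxiredoxin system. TXNRD1, the selenoprotein that recharges cytosolic thioredoxin (plus strand of chromosome 12, 104215779 to 104350307), was at 439, 392.1 and 432 CPM in the knockout libraries, against 349.5, 354 and 383 CPM in the wild-type libraries. Its genotypes did not overlap, but knockout replicate 2 and wild-type replicate 3 were close, and the log2 fold change was 0.22 (SE 0.05). SRXN1, the sulfiredoxin that restores overoxidised peroxiredoxins (minus strand of chromosome 20, 646615 to 653200), was at 135, 124.1 and 137 CPM in the knockout libraries, against 123.6, 121 and 119 CPM in the wild-type libraries. The lowest knockout and the highest wild-type library nearly met, and the log2 fold change was 0.13 (SE 0.06).

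NQO1, a quinone reductase that is widely used as a readout of NRF2, went the other way. Its gene spans 69706996 to 69726668 of chromosome 16 on the minus strand. Its level was 395, 447 and 425 CPM in the knockout libraries, against 452, 496 and 451 CPM in the wild-type libraries. Knockout replicate 2 came within a few CPM of 2 wild-type libraries, and the log2 fold change was -0.14 (SE 0.06). NQO1 was thus at 90.5% of its wild-type level, while HMOX1 was at 505% of its own.

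The transcripts of both regulators were higher in knockout cells. NFE2L2 (minus strand of chromosome 2, 177218667 to 177392756) was at 185, 187 and 185 CPM in the knockout libraries, against 157.5, 137 and 144 CPM in the wild-type libraries. The knockout libraries were nearly equal and all above the wild-type libraries, with a log2 fold change of 0.35 (SE 0.06). BACH1 (plus strand of chromosome 21, 29194071 to 29630751) was at 65.7, 71.7 and 65.3 CPM in the knockout libraries, against 47.3, 40.6 and 45.1 CPM in the wild-type libraries. The genotypes did not overlap, and the log2 fold change was 0.61 (SE 0.07). Per kb of transcript, the activator to repressor ratio was 6.33 ± 0.28 in knockout and 7.57 ± 0.22 in wild-type cells (SD, n = 3 each). NRF2 and BACH1 are controlled largely as proteins, which these transcript counts do not measure.

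**Figure D2:**
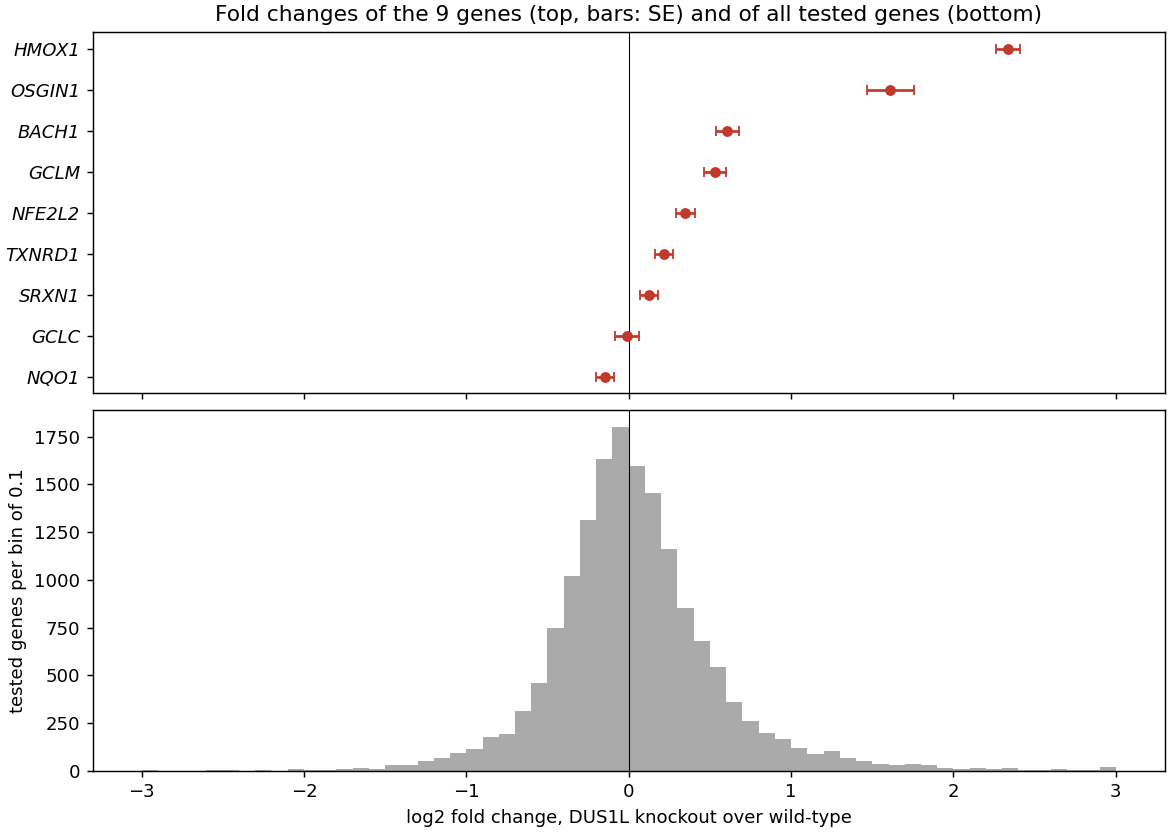
Top, log2 fold change of DUS1L knockout over wild-type for the 9 genes, with SE as bars. Bottom, the number of tested genes in each bin of 0.1 of log2 fold change, with the 15 genes above 3 and the 3 below -3 drawn in the end bins. HMOX1 at 2.34 and OSGIN1 at 1.61 lie in the right tail, and the 7 others lie between -0.14 and 0.61.

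How the 9 genes fell about the thresholds used for all genes is given as a description of the choice, not as a test of it. At an adjusted p under 0.05, 6 were on the higher side, 1, NQO1, on the lower side, and 2 did not reach the threshold. Of all 16046 genes, 41.2% were called (20.5% higher and 20.7% lower). At the threshold for changes past 1.5-fold, HMOX1 and OSGIN1 were on the higher side and none of the 9 on the lower side, while 3.58% of all genes were called (2.31% higher and 1.27% lower). The knockout libraries lay wholly above the wild-type libraries for 7 of the 9 and wholly below for 1, while the genotypes did not overlap for 51.1% of all genes (25.4% above and 25.8% below). Because the same contrast was known when the genes were picked, nothing is read from these counts. NQO1 did not reach the threshold without knockout replicate 1 or 3 or wild-type replicate 2, nor with library size alone as the scaling, each of which left 0 of the 9 on the lower side. The median log2 fold change was 0.17 over the 6 targets besides HMOX1 and -0.0042 over all tested genes.

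HMOX1 stood apart from the other targets when they were compared inside each library, where the scaling of libraries has almost no effect. The log2 CPM of HMOX1 minus the mean log2 CPM of NQO1, GCLM, GCLC, TXNRD1, SRXN1 and OSGIN1 was 0.06, 0.22 and 0.09 in the knockout libraries, against -1.97, -1.80 and -1.73 in the wild-type libraries. The genotypes were far apart relative to the spread within each, at 0.12 ± 0.09 in knockout and -1.83 ± 0.12 in wild-type cells (SD, n = 3 each). The difference between these means was 1.96 on the log2 scale. Taken gene by gene, the shift of HMOX1 was smallest against OSGIN1, at 0.76, and largest against NQO1, at 2.48. Against OSGIN1, the difference was 2.13 ± 0.33 in knockout and 1.37 ± 0.12 in wild-type cells. Against the regulators it was 1.73 for BACH1 and 1.99 for NFE2L2. As HMOX1 was chosen with this contrast known, these values are given without a test.

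**Figure D3:**
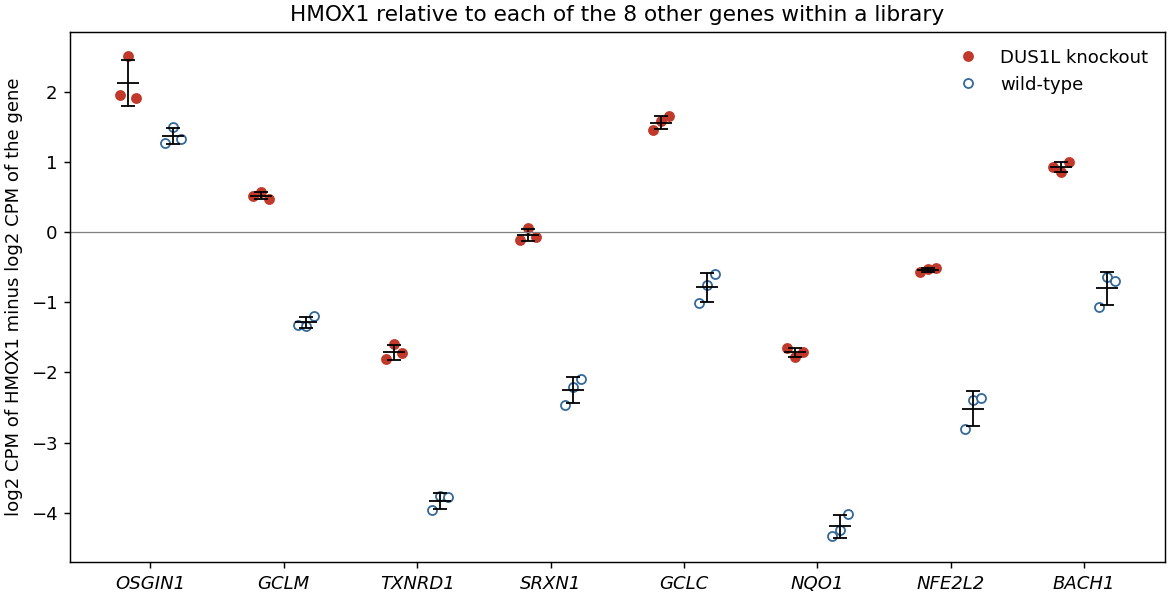
Log2 CPM of HMOX1 minus log2 CPM of each other gene in the same library, for 3 DUS1L knockout (filled red, left) and 3 wild-type libraries (open blue, right), with mean and SD in black. The height of a pair also depends on transcript length, so only the gap within a pair compares genotypes, and it runs from 0.76 for OSGIN1 to 2.48 for NQO1.

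Scaled per kb of the canonical transcript, the order of the levels also changed for HMOX1. In knockout cells the order was NQO1 (167.5 ± 10.4), TXNRD1 (109.1 ± 6.5), HMOX1 (82.6 ± 1.7), NFE2L2 (76.0 ± 0.5) and SRXN1 (52.3 ± 2.8 CPM per kb). GCLM (18.3 ± 0.8), OSGIN1 (15.5 ± 3.2), BACH1 (12.02 ± 0.63) and GCLC (11.5 ± 0.6 CPM per kb) followed. In wild-type cells it was NQO1 (185.0 ± 10.3), TXNRD1 (93.8 ± 4.7), NFE2L2 (59.7 ± 4.3), SRXN1 (47.95 ± 0.84) and HMOX1 (16.4 ± 1.8 CPM per kb), followed by GCLM (12.7 ± 1.0), GCLC (11.6 ± 0.4), BACH1 (7.89 ± 0.60) and OSGIN1 (5.08 ± 0.56 CPM per kb). In knockout cells the libraries of GCLM and OSGIN1, of OSGIN1 and BACH1, and of BACH1 and GCLC overlapped, and in wild-type cells those of GCLM and GCLC did. HMOX1 thus ranked 3 in knockout cells and 5 in wild-type cells. Relative to HMOX2, the constitutive heme oxygenase, HMOX1 per kb was at 1.43 ± 0.11 in knockout and 0.288 ± 0.038 in wild-type cells (SD, n = 3 each).

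Some of these counts share sequence with other annotated genes, and the strand setting of the counting was not given. NFE2L2 shares 3509 exonic bases with HNRNPA3 on the opposite strand, which was at 259 CPM in knockout and 343 CPM in wild-type cells, and the estimated count of NFE2L2 was fractional in all 6 libraries. NQO1 shares 575 exonic bases with a noncoding RNA gene on the opposite strand, at 0.0188 CPM in knockout and 0.301 CPM in wild-type cells. The estimated count of NQO1 was fractional in 4 of 6 libraries. SRXN1 shares 2292 exonic bases with a readthrough gene that had 0 counts in each library. OSGIN1 shares 457 exonic bases with MLYCD, at 3.46 CPM in knockout and 2.66 CPM in wild-type cells. HMOX1 shared no exonic bases with another gene, and its counts were whole in each library.

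The 5 protein-coding genes whose pattern was nearest to that of HMOX1 were ALOXE3, DNAH17, C15orf48, LCP1 and DUSP8. Likeness was the root mean square difference of log2 CPM, centred on the wild-type mean, over 6 libraries and 11203 genes. The distance was 0.163 for ALOXE3, an epidermal lipoxygenase gene, which averaged 26.8 ± 3.1 CPM in knockout and 5.21 ± 1.24 CPM in wild-type cells. It was 0.204 for DNAH17, an axonemal dynein heavy chain gene, 0.241 for C15orf48, a mitochondrial protein gene, 0.259 for LCP1, an actin bundling protein gene, and 0.26 for DUSP8, a MAPK phosphatase gene. OSGIN1 ranked 38th, at a distance of 0.572. The 7 other genes ranked between 642 for BACH1 and 7298 for NQO1. The choice of the nearest genes depended on single libraries: 3 of the 5 were again among the 5 nearest without knockout replicate 2, 3 without knockout replicate 3, and 2 without wild-type replicate 1.

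Among 16 regulators of NRF2 and BACH1, all 16 were tested, 5 rose, 3 fell and 8 did not pass (median log2 fold change 0.06). These are 31.2% higher and 18.8% lower, beside 20.5% and 20.7% of all tested genes. The 3 small MAF genes, whose proteins partner both factors, all rose. MAFF rose to 150.8, 142 and 129.7 CPM in the knockout libraries, against 58.1, 52.6 and 59.5 CPM in the wild-type libraries (log2 fold change 1.31, SE 0.07, adjusted p = 1.23e-11). MAFK rose by 0.72 (SE 0.07, adjusted p = 3.47e-08) and MAFG by 0.57 (SE 0.07, adjusted p = 8.27e-07). For all 3, each knockout library lay above each wild-type library, which also held for 25.4% of all tested genes. SQSTM1, the p62 receptor that can sequester KEAP1 and is itself an NRF2 target, rose to 2215, 2249 and 2175 CPM in the knockout libraries, against 1249, 1206 and 1216 CPM in the wild-type libraries (log2 fold change 0.85, adjusted p = 2.28e-11). MAFF and SQSTM1 were the 2 of 16 regulators called higher past 1.5-fold, and none was called lower. Past 1.5-fold, 2.31% of all tested genes were called higher and 1.27% lower.

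In the ligase that degrades NRF2, RBX1 passed the test and KEAP1 and CUL3 did not. KEAP1 was at 83.3 ± 3.1 CPM in knockout and 85.1 ± 2.2 CPM in wild-type cells (adjusted p = 0.718), and CUL3 at 80.0 ± 5.0 CPM in knockout and 75.4 ± 4.9 CPM in wild-type cells (adjusted p = 0.331). RBX1, the RING subunit, fell to 38.1 ± 2.0 CPM in knockout cells, against 51.9 ± 1.1 CPM in wild-type cells (adjusted p = 4.34e-05). In the KEAP1-independent route, GSK3B had a log2 fold change of 0.14 (adjusted p = 0.0758) and the F-box gene BTRC of -0.07 (adjusted p = 0.455). GSK3B was called higher without wild-type replicate 1 (adjusted p = 0.021) and with library size alone as the scaling (0.0222). The F-box genes that act on BACH1, FBXO22 and FBXL17, had log2 fold changes of 0.08 and -0.29 (adjusted p = 0.317 and 0.0736). FBXL17 was called lower without knockout replicate 2 (adjusted p = 0.0346). DPP3, which competes for KEAP1, fell by 0.23 (adjusted p = 0.0173). That call was lost without knockout replicate 1 or 2 or wild-type replicate 2 (adjusted p = 0.0536, 0.0871 and 0.116) and with library size alone (0.055).

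Of the relatives of NRF2 and BACH1, NFE2L3 fell, NFE2L1 and NFE2 did not pass, and the call of BACH2 depended on the fit. NFE2L1, which drives proteasome genes, was at 345.9 ± 12.6 CPM in knockout and 338.6 ± 15.9 CPM in wild-type cells (adjusted p = 0.665). NFE2L3 fell to 52.3 ± 1.0 CPM in knockout cells, against 66.1 ± 4.9 CPM in wild-type cells (adjusted p = 0.000524). NFE2, the blood lineage member, was at 1.77 ± 0.79 CPM in knockout and 2.00 ± 0.63 CPM in wild-type cells (adjusted p = 0.734). BACH2, known for its role in lymphocytes, was at 3.92 ± 0.56 CPM in knockout and 2.60 ± 0.24 CPM in wild-type cells (log2 fold change 0.59, adjusted p = 0.0437). The call of BACH2 was lost in each of the 6 fits that left out a library (adjusted p from 0.054 to 0.185), with the replicate block (0.0596), with DESeq2 (0.0776) and without a filter on low counts (0.0886).

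NRF2 targets outside the 9 genes were described by 3 lists with 38 genes, 33 of them tested. Of these, 6 rose, 15 fell and 12 did not pass, with a median log2 fold change of -0.22, beside -0.0042 over all tested genes. The shares were 18.2% higher and 45.5% lower, against 20.5% and 20.7% of all tested genes. None of these 33 was called higher past 1.5-fold, and 1, AKR1C2, was called lower past 1.5-fold. Of all tested genes, 2.31% were called higher and 1.27% lower past 1.5-fold, so little is read from these few calls. NRF2 targets placed in other lists, such as SQSTM1, FTH1 and FTL, are not in these counts. Those named were called higher in the main fit, SQSTM1 also past 1.5-fold, so the counts depend on how the lists were drawn. The lists were chosen by function with earlier results of these data known.

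Genes of thiol systems and export gave 2 higher and 6 lower of 12 tested (median -0.18). These are 16.7% and 50%, beside 20.5% and 20.7% of all tested genes. GPX2 and GSTA1 had 0 or 1 count in each library and were not tested. Thioredoxin itself, TXN, fell to 294.5 ± 11.2 CPM in knockout cells, against 364.6 ± 35.4 CPM in wild-type cells (log2 fold change -0.31, SE 0.06, adjusted p = 0.000455). The drug and conjugate exporter gene ABCC1 rose by 0.22 (adjusted p = 0.00654), while ABCC2 fell by 0.22 (adjusted p = 0.00813) and glutaredoxin, GLRX, by 0.30 (adjusted p = 0.00831). Without knockout replicate 1, ABCC2 and GLRX were not called (adjusted p = 0.0571 and 0.0688). GSTM2, a glutathione transferase with close relatives that can share reads, was at 3.92 ± 0.67 CPM in knockout and 5.54 ± 0.13 CPM in wild-type cells (adjusted p = 0.0448), and lost its call in 5 of 6 fits that left out a library (adjusted p from 0.0735 to 0.162). It also lost the call with the replicate block (0.0568), DESeq2 (0.0832), no filter on low counts (0.066) and library size alone (0.0686). SLC7A11, the cystine carrier that both NRF2 and ATF4 activate, was named outside the naming rule, after its value was seen. It rose by 0.21 (adjusted p = 0.0169) and lost its call without knockout replicate 3 and without wild-type replicate 1 (adjusted p = 0.08 and 0.0594). The list held 3 lower genes without knockout replicate 1 or 2 or with library size alone, and 1 higher gene without knockout replicate 3 or wild-type replicate 1.

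Among enzymes of NADPH supply and sugar metabolism, 4 of 7 fell and 1 rose (median -0.28). These are 57.1% and 14.3%, beside 20.7% and 20.5% of all tested genes. TKT and TALDO1 of the non-oxidative pentose phosphate pathway fell by 0.39 (SE 0.05, adjusted p = 1.9e-06) and 0.28 (SE 0.05, adjusted p = 0.000297). PGD of its oxidative arm fell to 138 ± 4.7 CPM in knockout cells, against 175.7 ± 1.6 CPM in wild-type cells (adjusted p = 2.29e-05). IDH1, the cytosolic isocitrate dehydrogenase, fell to 76.9, 88.6 and 77.1 CPM in the knockout libraries, against 120.8, 117 and 108 CPM in the wild-type libraries (log2 fold change -0.51, adjusted p = 3.46e-06). UGDH, which makes UDP-glucuronate, rose by 0.34 (adjusted p = 0.00728). Each of these 5 genes kept its call in all alternatives tried.

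Carbonyl and xenobiotic enzymes and other targets gave 3 higher and 5 lower of 14 tested (median -0.16). These are 21.4% and 35.7%, beside 20.5% and 20.7% of all tested genes. AKR1B10, ALDH3A1 and UGT1A6 had too few counts to be tested. Among the genes of the list that passed the test, the aldo-keto reductase genes AKR1C2 and AKR1C3 fell furthest, by 2.00 (SE 0.15, adjusted p = 1.67e-09) and 0.87 (SE 0.13, adjusted p = 1.24e-05). AKR1C2 was at 4.57, 4.16 and 6.15 CPM in the knockout libraries, against 21.3, 20.5 and 17.6 CPM in the wild-type libraries. The AKR1C genes are near copies, so the split of reads among them is uncertain. Carbonyl reductase, CBR1, fell by 0.27 (adjusted p = 0.000741), and RIT1, a Ras-like GTPase gene, rose by 0.52 (adjusted p = 1.36e-05).

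The antioxidant response element core stood in the promoter windows of 11 of the 28 genes of these 3 lists with an entry, or 39.3%, and in 16.1% of all 27305 genes in the promoter table. Matches stood by genes that fell, rose or did not pass. They are printed, to be set beside that of GCLM, for IDH1, PGD and CBR1, which fell, and for 3 genes named after their values were seen. These are PIR, an iron-binding nuclear protein gene (log2 fold change -0.37, adjusted p = 0.00361), the malic enzyme gene ME1 (-0.10, adjusted p = 0.253) and the epoxide hydrolase gene EPHX1 (0.28, adjusted p = 0.00467). A second match in the ME1 window is not printed.
PIR, chrX:15493289-15493317, minus strand: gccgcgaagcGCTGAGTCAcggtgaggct
ME1, chr6:83431170-83431198, minus strand: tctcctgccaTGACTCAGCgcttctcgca
IDH1, chr2:208255196-208255224, minus strand: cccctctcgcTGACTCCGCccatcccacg
PGD, chr1:10398853-10398881, plus strand: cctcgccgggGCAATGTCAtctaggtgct
CBR1, chr21:36069855-36069883, plus strand: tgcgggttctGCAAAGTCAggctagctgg
EPHX1, chr1:225825266-225825294, plus strand: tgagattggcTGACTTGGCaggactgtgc
A match describes letters and not a bound site.

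**Figure D4:**
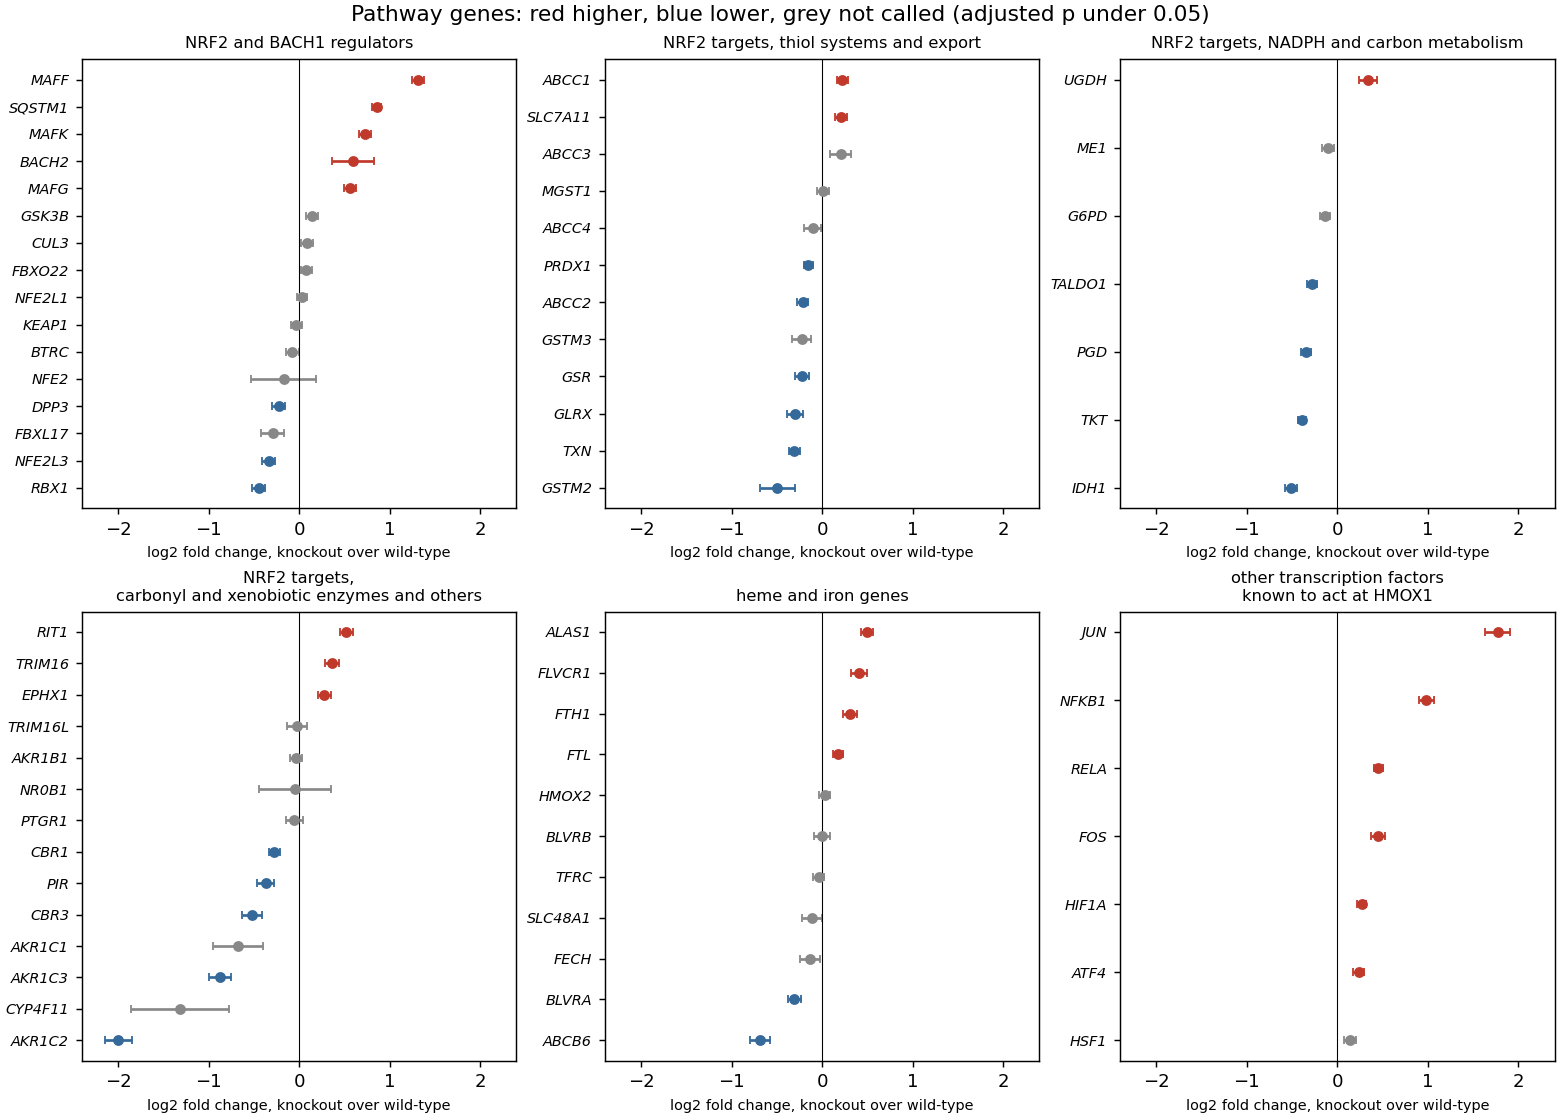
Log2 fold change of DUS1L knockout over wild-type for the tested genes of 6 pathway lists, with SE as bars. Red points were called higher, blue lower and grey not called at an adjusted p under 0.05. Regulators and other transcription factors include genes far to the right (MAFF at 1.31, JUN at 1.77), whereas the 3 NRF2 target lists lie mostly left of 0.

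Around heme itself, 4 of 11 tested genes rose and 2 fell (median 0.0012), or 36.4% and 18.2% beside 20.5% and 20.7% of all tested genes. The iron exporter gene SLC40A1 had too few counts to be tested. ALAS1, the rate-limiting enzyme of heme synthesis, rose to 137, 161 and 137 CPM in the knockout libraries, against 102, 104 and 102 CPM in the wild-type libraries (log2 fold change 0.50, adjusted p = 3.11e-06). FLVCR1, described as a heme exporter, rose by 0.41 (adjusted p = 0.000778). ABCB6, a porphyrin transporter, fell by 0.69 (adjusted p = 4.04e-05). Of the reductases that turn the HMOX1 product biliverdin into bilirubin, BLVRA fell by 0.31 (adjusted p = 0.00123), and BLVRB was at 31.3 ± 1.7 CPM in knockout and 31.2 ± 2.6 CPM in wild-type cells (adjusted p = 0.994). HMOX2 was at 97.3 ± 5.9 CPM in knockout and 95.3 ± 2.8 CPM in wild-type cells (adjusted p = 0.718).

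Ferritin, which stores the iron that heme oxygenase frees and is a known target of NRF2 and BACH1, rose by small amounts. FTH1 was at 6812, 8566 and 6824 CPM in the knockout libraries, against 6108, 5949 and 5880.0 CPM in the wild-type libraries (log2 fold change 0.31, SE 0.08, adjusted p = 0.00825). FTL had a log2 fold change of 0.17 (SE 0.05, adjusted p = 0.0151). The genotypes of FTL overlapped, with knockout replicate 1 at 1654 CPM and wild-type replicate 2 at 1660.1 CPM. Knockout replicate 2 was the highest for FTH1, and without it the log2 fold change of FTH1 was 0.19, still called. The call of FTH1 was lost without wild-type replicate 1 and without replicate 3 (adjusted p = 0.105 and 0.0818) or with limma-voom (0.0627). The call of FTL was lost without knockout replicate 2, knockout replicate 3 or wild-type replicate 3 (adjusted p = 0.0992, 0.0601 and 0.0534). The list held 2 higher genes without wild-type replicate 3. Ferritin genes have many processed pseudogenes that can share reads. BLVRB, HMOX2, FTH1 and FTL were named outside the naming rule, after their values were seen.

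Of 7 other transcription factor genes known to act at HMOX1, 6 rose, none fell and HSF1 did not pass (median 0.45), where 20.5% of all tested genes rose and 20.7% fell. JUN, an AP-1 subunit, rose to 329, 292 and 279 CPM in the knockout libraries, against 104.5, 74.0 and 85.6 CPM in the wild-type libraries (log2 fold change 1.77, SE 0.14, adjusted p = 0.000117). Its partner FOS rose by 0.45 (SE 0.08, adjusted p = 0.00011). The NF-kB genes NFKB1 and RELA rose by 0.98 (SE 0.08, adjusted p = 1.35e-06) and 0.45 (SE 0.05, adjusted p = 7.14e-07). HSF1, the heat shock factor, was at 127 ± 11.7 CPM in knockout and 115.7 ± 7.4 CPM in wild-type cells (adjusted p = 0.108). It was called higher without knockout replicate 2 (adjusted p = 0.0456) and with library size alone (0.0402). HIF1A and ATF4, named after their values were seen, rose by 0.27 and 0.24 (adjusted p = 0.000172 and 0.00585), and ATF4 was not called without knockout replicate 3 (adjusted p = 0.059). Their part in the level of HMOX1 was not tested.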

How the data were processed

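RNA-seq of 3 DUS1L knockout and 3 wild-type A375 libraries was analysed. The authors deposited estimated counts per gene, which need not be whole, with no normalization recorded. Per the submitters' processing notes, GRCh38 (hg38) was used. Aligner, counter, strand setting and annotation: not given in the sources used here. Of the identifiers, 62541 (99.1%) matched GENCODE release 44, and TRIM16L, which had more than one, was taken at the identifier with more counts. Counts were rounded, filtered with filterByExpr (minimum count 10), scaled by TMM and compared with edgeR 4.0.16 in R 4.3.3 (robust quasi-likelihood fit, group as the only term, Benjamini-Hochberg adjustment over 16046 genes, threshold 0.05, two-sided). glmTreat tested for changes past 1.5-fold. SE is the log2 fold change over the root of F. Log2 CPM used a prior count of 2. Replicates are described as biological, so p-values rest on the spread among those cultures only. No libraries matched within sampling noise (chi-square per degree of freedom from 3.72 within genotypes).

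The members and lists were chosen with earlier results of these data known. The genes named were the 9 members, all regulators, up to 4 genes of each other list with the smallest p plus its highest and lowest fold change at 5 CPM or more, and the 5 nearest to HMOX1. Alternatives were 3 other scalings, 2 other filters, DESeq2 1.42.0, limma-voom (limma 3.58.1), the replicate number as a block, a prior count of 0.5 and leaving out each library. Intervals set by 3 counts cover counting error only.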

Additional observations from a re-analysis of the deposited data

How the results depend on the processing

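The log2 fold change of HMOX1 ranged from 2.25 to 2.404, that of the other targets' median from 0.15 to 0.22, and the difference between HMOX1 and the other targets from 1.89 to 2.01 over the alternatives run for each. The 8 other genes moved by less than the spread between replicates in each alternative, though the sign of GCLC, near 0, was not stable. Of 50 list genes named, 12 changed side of the threshold in some alternative, none with a reversed direction. With library size alone, 0 of the 9 genes were called lower, against 1, and 3 thiol genes, against 6. Past 1.5-fold, DESeq2 called 230 genes higher and 110 lower and limma-voom 226 and 119, against 371 and 204. Leaving out a library gave 268 to 395 higher and 144 to 199 lower genes past 1.5-fold, 0 to 1 of the 9 genes lower, 3 to 5 lower and 1 to 2 higher thiol genes, 2 to 4 higher heme and iron genes, and 2 to 4 of the 5 genes nearest HMOX1. The cause was not tested, beyond fewer samples in the fits without a library. Same-numbered libraries did not deviate together (r = -0.03, -0.0014 and 0.03), so the numbers do not pair them; with the replicate block, 3122 genes were called higher and 3119 lower, against 3288 and 3320, and HMOX1 was at 2.34. Depth limits NFE2, BACH2 and the genes left untested.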
